A study of Mus musculus with 12 samples.

Results

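Matrix metalloproteinases (MMPs) are zinc-dependent proteases that are made as inactive precursors and, once activated, cut collagens, elastin and other proteins of the extracellular matrix as well as cytokines and receptors. Tissue inhibitors of metalloproteinases (TIMPs) bind the active enzymes and block them, and several of them also take part in activating other MMPs at the cell surface. Macrophages make both groups and use them in tissue invasion, matrix turnover and inflammation. The expression of 10 of these genes was examined in bone marrow-derived macrophages (BMDMs): the proteases Mmp2, Mmp8, Mmp9, Mmp12, Mmp13, Mmp14 and Mmp19 and the inhibitors Timp1, Timp2 and Timp3. They were found on the array by the transcript accession of their probes. They are 10 of 32301 entries measured, of which 22354 were tested. An entry is a gene symbol (18217 in all) or, for probes without a symbol, an accession. Entries under an accession need not be separate genes, and all shares of genes below count such entries. The rule that picks the 10 genes uses no measured value, but the set was chosen with earlier results of these data known.

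The BMDMs came from 4 C57BL/6 mice aged 8 weeks. A WT mouse and a mouse lacking Keap1 in myeloid cells (Keap1 flox/flox::LysM-Cre, termed KpCKO) were used in each of 2 cultures, and the Cre acts only in cells that express LysM. Keap1 is the adaptor that sends the transcription factor Nrf2 to degradation, so Nrf2 accumulates in KpCKO cells. After 7 days in M-CSF the cells of each mouse were left unstimulated (Con), or treated for 6 hours with LPS and IFNg (M1) or IL-4 (M2), which gave 12 arrays in 6 groups of 2. Culture 1 used male and culture 2 female mice, so the sex and the culture cannot be told apart. Whether the WT mice carried floxed alleles or Cre is not given in the sources used here.

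All levels below are log2 signals less the 75th percentile of the same array, so that 0 is the level of that percentile. Each slide held the 4 arrays of 1 condition, so that stimulation and slide cannot be told apart, while genotypes were compared within a slide. The 75th percentile signal was 548 to 906 on the M1 arrays and 966 to 1170 on the others, and no probe was saturated. Keap1 was lower in KpCKO than in WT cells in each condition (levels of 0.94 to 3.04 against 2.85 to 4.80, with differences of -1.46, -1.71 and -1.81 in Con, M1 and M2). Nqo1, a Nrf2 target, was higher by 3.23 to 3.53. The macrophage markers fitted the label, with 9 of 9 genes that had a probe above background on 12 of 12 arrays, among them Adgre1 and Csf1r. Of 12 stromal markers, at least 11 were above background on each array. A test was limma's moderated test over all arrays with the culture as a block, adjusted by Benjamini-Hochberg over the 22354 genes, and a gene was called at an adjusted p under 0.05.

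All 10 genes were well above background on 12 of 12 arrays. Mmp13, Mmp12 and Mmp8 lie in a run of MMP genes on chromosome 9, and the regions just upstream of their starts are shown because these genes differed most between genotypes or conditions. Mmp14, on chromosome 14, is added because it also rose with M1 stimulation. The sequences are those of RefSeq (GRCm38.p6, plus strand), and each is the 250 bases before an annotated start. Mmp12 has 2 starts in that table. Capitals mark matches to the AP-1 site (TGANTCA) or to the core of the antioxidant response element (ARE, TGAGNNNGC or TGACNNNGC), the sequence bound by Nrf2 with its partners. The searches covered both strands.
Mmp13 chr9:7272264-7272513: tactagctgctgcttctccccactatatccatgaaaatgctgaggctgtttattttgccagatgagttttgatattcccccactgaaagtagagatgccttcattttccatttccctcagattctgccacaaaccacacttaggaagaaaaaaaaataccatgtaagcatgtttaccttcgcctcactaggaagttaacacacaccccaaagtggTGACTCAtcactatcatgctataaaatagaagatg
Mmp12 (first start) chr9:7344147-7344396: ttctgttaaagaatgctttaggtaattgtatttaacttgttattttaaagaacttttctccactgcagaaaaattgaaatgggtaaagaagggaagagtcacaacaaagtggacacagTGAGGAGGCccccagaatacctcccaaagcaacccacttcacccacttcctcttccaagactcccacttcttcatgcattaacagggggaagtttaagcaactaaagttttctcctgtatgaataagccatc
Mmp12 (second start) chr9:7347124-7347373: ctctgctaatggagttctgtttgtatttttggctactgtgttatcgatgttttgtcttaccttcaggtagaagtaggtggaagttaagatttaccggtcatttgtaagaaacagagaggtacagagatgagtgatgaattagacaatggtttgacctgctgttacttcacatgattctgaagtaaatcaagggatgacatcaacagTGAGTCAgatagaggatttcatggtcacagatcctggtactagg
Mmp8 chr9:7558179-7558428: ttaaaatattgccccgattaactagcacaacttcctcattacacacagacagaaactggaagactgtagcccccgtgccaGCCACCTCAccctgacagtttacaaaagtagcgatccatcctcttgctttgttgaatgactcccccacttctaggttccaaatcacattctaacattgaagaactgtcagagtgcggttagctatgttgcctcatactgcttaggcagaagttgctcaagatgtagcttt
Mmp14 chr14:54431348-54431597: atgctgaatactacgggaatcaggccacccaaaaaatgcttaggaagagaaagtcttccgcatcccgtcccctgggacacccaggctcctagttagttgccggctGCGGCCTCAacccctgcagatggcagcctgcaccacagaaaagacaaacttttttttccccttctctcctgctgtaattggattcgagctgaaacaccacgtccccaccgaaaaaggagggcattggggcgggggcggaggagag

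The AP-1 match of Mmp13 lay 35 to 29 bases before its start, and that of the second Mmp12 start 44 to 38 bases before it. AP-1 matches were found in 2 of the 8 windows of these genes and in 7.81% of 32851 windows of all genes, each of 300 bases. The pattern TGAGNNNGC was found in 3 of 8, against 17.6% of all windows. It lay 132 to 124 bases before the first Mmp12 start, on the plus strand, and on the minus strand 170 to 162 bases before the Mmp8 start and 145 to 137 bases before the Mmp14 start. The match at Mmp12 overlapped a match to the kappaB consensus, 129 to 120 bases before the start on the minus strand (1 of 8 windows against 8.46%).

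Timp2 held TGACNNNGC on the minus strand (1 of 8 against 12.4%), and Timp1 and Timp3 held the ETS pattern CAGGAAG (2 of 8 against 13.3%). The ETS pattern CCGGAAG, the GAS pattern TTCNNNGAA and the STAT6 motif were in 0 of 8, against 8.86%, 8.30% and 6.95% of all windows. In all, 7 of the 10 genes had a window in the table, and Mmp2, Mmp9 and Mmp19 had none. Such matches describe letters in these windows and not bound sites.

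**Figure D1:**
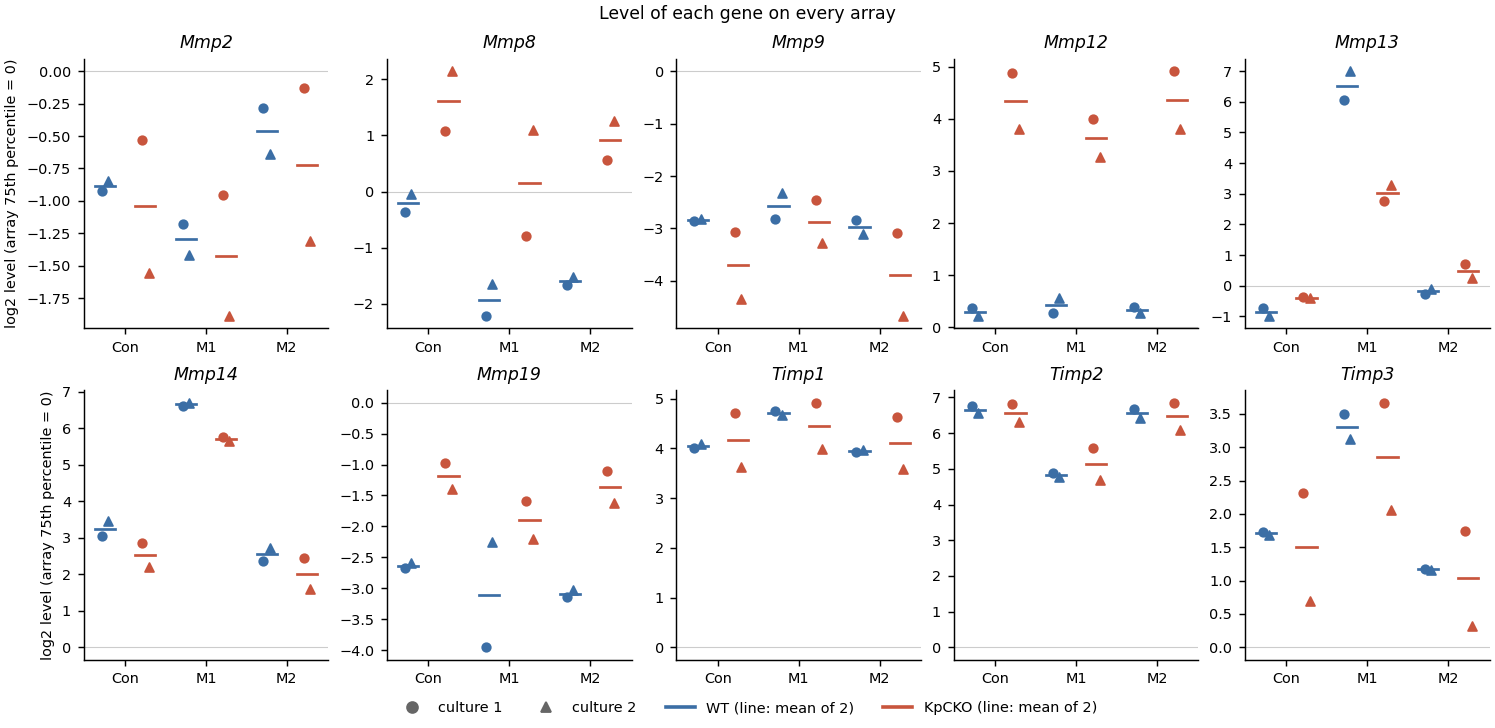
Level of each gene on every array, as log2 signal with the 75th percentile of the array at 0, for Con, M1 and M2 (circles culture 1, triangles culture 2, lines the mean of 2 arrays, blue WT, red KpCKO, with a separate scale for each gene). Mmp12 was at 3.26 to 4.91 on the 6 KpCKO arrays and at 0.22 to 0.57 on the 6 WT arrays, and Mmp13 was highest on the WT M1 arrays.

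M1 stimulation was followed by large rises of the collagenase Mmp13 and of the membrane-bound protease Mmp14 in WT cells, together with a rise of Timp3 and falls of Mmp8 and Timp2. Of the 10 genes, 5 were called (3 higher, 2 lower), where 63.2% of all genes tested were called (34.5% higher and 28.7% lower). The median difference of the 10 was 0.19 on the log2 scale, and that of all genes was 0.13. In KpCKO cells 4 were called (2 higher, 2 lower), where 50.2% of all genes were called (24.8% higher and 25.4% lower), with medians of -0.05 and 0.03. The share of these genes that changed with M1 was thus no higher than that of all genes, and the size of single changes is what is described here.

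Mmp13 encodes collagenase 3, which cuts fibrillar collagen. It was at -0.73 and -0.99 in the WT Con cells of cultures 1 and 2, and at 6.06 and 6.99 after M1. In KpCKO cells it went from -0.38 and -0.41 to 2.75 and 3.28. The M1 arrays were thus above the Con arrays without overlap in both genotypes, and the WT M1 arrays were above the KpCKO M1 arrays. The M1 difference was 7.38 on the log2 scale in WT (SE 0.32, a 167-fold rise, limma adjusted p = 7.5e-06). In KpCKO it was 3.41 (SE 0.32, limma adjusted p = 0.00021). Ordered by group mean, Mmp13 was highest in WT M1 (6.52 ± 0.66, SD, n = 2), followed by KpCKO M1 (3.02 ± 0.37), KpCKO M2 (0.48 ± 0.34), WT M2 (-0.19 ± 0.11), KpCKO Con (-0.40 ± 0.02) and WT Con (-0.86 ± 0.18). The 4 groups without M1 stimulation did not overlap, but none of their genotype or M2 differences passed the test.

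Mmp14 encodes MT1-MMP, which is anchored in the cell membrane and activates the precursor of Mmp2. Its level in WT cells was 3.04 and 3.45 in Con and 6.61 and 6.70 in M1. In KpCKO cells it was 2.87 and 2.21 in Con and 5.75 and 5.64 in M1. All 4 M1 arrays were above all 4 Con arrays. The rise was 3.41 (SE 0.32, 10.6-fold, limma adjusted p = 0.00013) in WT and 3.16 (SE 0.32, 8.91-fold, adjusted p = 0.00029) in KpCKO. A second Mmp14 probe gave 3.74 and 3.29.

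Mmp8, a collagenase that neutrophils store in their granules, moved the opposite way. It fell in WT cells from -0.36 and -0.05 to -2.22 and -1.65. In KpCKO cells it went from 1.09 and 2.14 to -0.79 and 1.10. The WT groups did not overlap, and the KpCKO groups did, although both KpCKO mice went down. The differences were -1.73 (SE 0.39, limma adjusted p = 0.0069) in WT and -1.46 (SE 0.39, adjusted p = 0.018) in KpCKO. The first was not called without the WT Con array of culture 1 (adjusted p = 0.051). The second was not called without either KpCKO Con array (adjusted p = 0.052 and 0.11) or the KpCKO M1 array of culture 1 (adjusted p = 0.067, with a difference of -0.79), nor without the culture block (adjusted p = 0.090).

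The 3 inhibitors went different ways. Timp2, which blocks active Mmp14 and also helps it to activate Mmp2, was at 6.76 and 6.56 in WT Con and 4.88 and 4.78 in WT M1. In KpCKO cells it was at 6.80 and 6.33 in Con and 5.59 and 4.69 in M1. The M1 arrays were below all Con arrays in both genotypes, and the falls were -1.83 (SE 0.21, limma adjusted p = 0.00031) and -1.43 (SE 0.21, adjusted p = 0.0014).

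Timp3, an inhibitor that is held in the matrix and also blocks sheddases of the ADAM family, was at 1.72 and 1.69 in WT Con and 3.50 and 3.12 in WT M1. It was at 2.31 and 0.70 in KpCKO Con and 3.67 and 2.06 in KpCKO M1. The WT groups did not overlap, and the KpCKO groups did, since the culture 1 mouse was above the culture 2 mouse in both. The differences were 1.60 (SE 0.48, limma adjusted p = 0.022) in WT and 1.36 (SE 0.48, adjusted p = 0.051) in KpCKO. The WT call was lost without the WT Con array of culture 1 (1.11, adjusted p = 0.14) or the culture 2 array of WT M1 (1.32, adjusted p = 0.12), without the culture block (adjusted p = 0.080) and under quantile normalization (adjusted p = 0.052). The KpCKO difference was called in 6 of 18 alternatives, among them trended variances (limma adjusted p = 0.033). That count includes the fits without the KpCKO mouse of culture 1 or 2 (differences of 1.355 and 1.357). Those fits compare single KpCKO arrays and take the spread from other groups, so their calls add no evidence.

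Timp1, which inhibits most secreted MMPs, was not called. It was at 4.0 and 4.09 in WT Con and 4.76 and 4.67 in WT M1, a difference of 0.67 (SE 0.35, limma adjusted p = 0.14). In KpCKO cells its difference was 0.28 (adjusted p = 0.54). The gelatinases Mmp2 and Mmp9, the elastase Mmp12 and the less studied Mmp19 were not called either. Their M1 differences in WT were -0.41, 0.26, 0.13 and -0.47, and those in KpCKO -0.38, 0.84, -0.72 and -0.72. For Mmp9 a second probe gave 0.52 in WT and 0.93 in KpCKO.

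Mmp19 was at -3.95 and -2.26 in WT M1, the widest gap between the 2 arrays of any WT group of these 10 genes. With that culture 2 array left out its M1 difference was -1.45 (limma adjusted p = 0.0062).

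**Figure D2:**
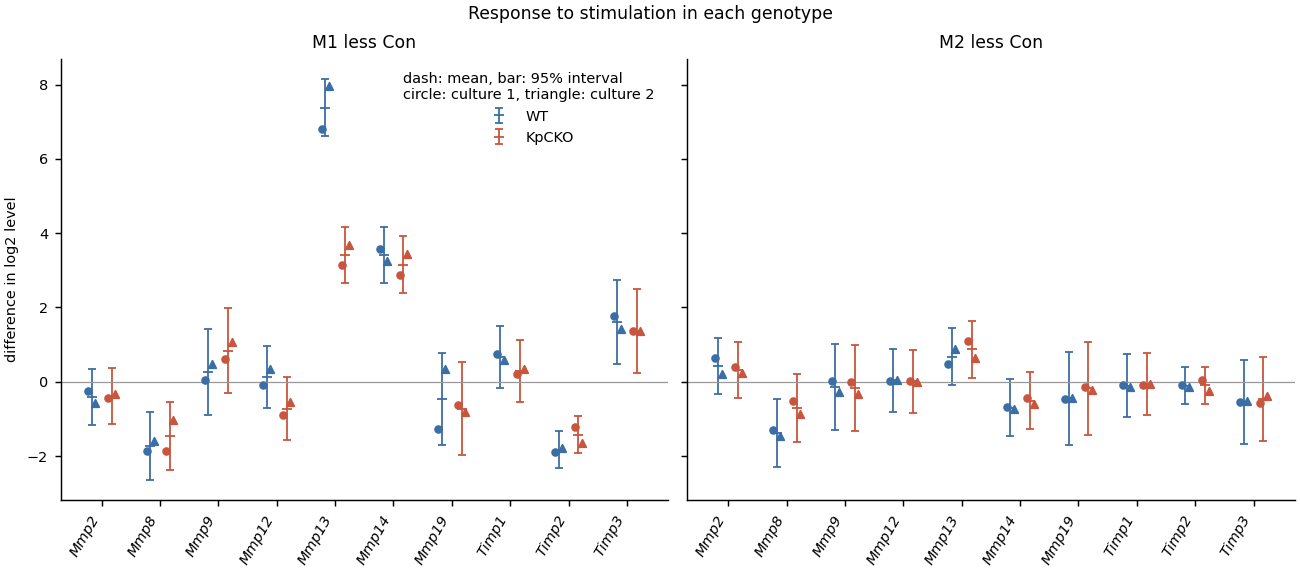
Difference in log2 level between M1 and Con (left) and between M2 and Con (right) for each gene in WT (blue) and KpCKO (red) cells, with the mean, its 95% interval from the model and the value of each culture. Mmp13 rose by 7.38 in WT and 3.41 in KpCKO, Mmp14 by 3.41 and 3.16, and the M2 differences lay between -1.38 and 0.88.

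M2 stimulation changed none of the 10 genes beyond the test. In WT cells 0 of 10 were called by limma (1 at an unadjusted p under 0.05, and 0 by the methods' t-test after Benjamini-Hochberg adjustment), where 16.8% of all genes were called. In KpCKO cells 0 of 10 were called (1 at an unadjusted p under 0.05), where 10.2% were called. Mmp8 came nearest in WT. Its M2 levels of -1.66 and -1.52 were below the Con levels of -0.36 and -0.05, and the difference was -1.38 (SE 0.39, limma adjusted p = 0.053). It was called under quantile normalization (adjusted p = 0.046) and with the filter for probes above background on all 12 arrays (adjusted p = 0.035). In KpCKO cells the Mmp8 difference was -0.70 (adjusted p = 0.30), and the test of the difference between genotypes gave 0.68 (SE 0.55, limma adjusted p = 1). Mmp13 was slightly higher with M2 in each culture of both genotypes, by 0.47 and 0.88 in WT and by 1.10 and 0.65 in KpCKO, and neither difference was called (limma adjusted p = 0.20 and 0.14).

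The loss of Keap1 was accompanied by a higher level of Mmp12 in every condition, a higher level of Mmp8 in M1 and M2, and a lower level of Mmp13 in M1. In Con 1 of the 10 genes was called (higher), where 2.21% of all genes were called (1.38% higher and 0.828% lower). In M1 3 were called (2 higher, 1 lower), where 16.0% were called (7.41% higher and 8.60% lower). In M2 2 were called (higher), where 1.93% were called (1.28% higher and 0.644% lower). The median KpCKO difference of the 10 genes was 0.01 in Con, -0.20 in M1 and 0.04 in M2, against 0.0016, -0.09 and 0.02 over all genes. None of the 3 inhibitors was called in any condition.

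Mmp12 encodes macrophage elastase. It was at 0.37 and 0.22 in WT Con and at 4.88 and 3.81 in KpCKO Con. In M1 it was at 0.27 and 0.56 in WT and at 3.99 and 3.26 in KpCKO, and in M2 at 0.39 and 0.27 against 4.91 and 3.79. Every KpCKO array was thus far above every WT array, and culture 1 exceeded culture 2 in KpCKO but not in each WT condition. The difference was 4.05 in Con (SE 0.35, 16.6-fold, limma adjusted p = 0.0036), 3.20 in M1 (9.21-fold, adjusted p = 0.0036) and 4.03 in M2 (16.3-fold, adjusted p = 0.0042).

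Within the cultures the Mmp12 differences were 4.51, 3.71 and 4.52 in culture 1 and 3.59, 2.69 and 3.53 in culture 2. The M1 response of Mmp12 did not differ detectably between genotypes (-0.85, 95% interval -2.04 to 0.34, adjusted p = 0.43). Without the 3 arrays of the KpCKO mouse of culture 1 the differences were 3.51, 2.83 and 3.46, and without those of culture 2 they were 4.59, 3.57 and 4.59. The limma adjusted p was then 0.050 to 0.075 except in M1 without the mouse of culture 2, where the call was kept. The call in M2 was also lost without the WT M2 array of culture 1 (3.81, adjusted p = 0.052). With only the 4 arrays compared in the fit the adjusted p was 0.16 in Con and in M1 and 0.18 in M2.

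A marker of dendritic cells was also higher in KpCKO in Con and M1. Itgax (CD11c), which macrophages of some tissues also express, was higher in KpCKO by 2.99 in Con and by 1.37 in M1, with limma adjusted p of 0.011 and 0.044. In M2 its difference was 1.64 and was not called (adjusted p = 0.085). It was the only one of 6 dendritic cell markers tested that was called in either. The median KpCKO difference of the 6 was 1.03 in Con, -0.08 in M1 and 0.42 in M2. The summed level of that list, in which the brightest markers weigh most, was 7.93 to 15.1 in KpCKO Con and 1.53 to 1.60 in WT Con. It was 13.7 to 19.6 against 7.29 to 7.42 in M1 and 17.5 to 26.9 against 5.82 to 8.76 in M2. Between 3 and 6 of the 6 markers were above background on an array, and Flt3 was above it on 12 of 12. The part of such cells in the Mmp12 difference was not tested.

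Mmp8 was higher in KpCKO in each condition, at 1.09 and 2.14 against -0.36 and -0.05 in Con, -0.79 and 1.10 against -2.22 and -1.65 in M1, and 0.56 and 1.26 against -1.66 and -1.52 in M2. The genotypes did not overlap in any condition, and the culture 2 array was the higher in each of the 6 pairs. The difference was 1.82 in Con (limma adjusted p = 0.076, not called), 2.09 in M1 (SE 0.39, 4.26-fold, adjusted p = 0.018) and 2.5 in M2 (5.67-fold, adjusted p = 0.029).

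Without the culture block the Mmp8 calls were lost (adjusted p = 0.086 in M1 and 0.16 in M2). The M1 call was lost when the culture 2 array of WT M1 was left out (1.96, adjusted p = 0.092) and without the KpCKO mouse of culture 2 (1.31, adjusted p = 0.061). The M2 call was lost without any array of the 4 compared (2.13 to 2.88, adjusted p = 0.092 to 0.18) and without either KpCKO mouse (2.69 and 2.32, adjusted p = 0.078 and 0.074).

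Mmp8 is also a neutrophil gene, so neutrophil markers were set beside it. None of 9 neutrophil markers tested was called between genotypes in Con, M1 or M2, where 2.21%, 16.0% and 1.93% of all genes were called. Their median differences were -0.29, -0.22 and -0.61. Over the 3 conditions, Mpo was higher in KpCKO (1.06) and Retnlg lower (-1.20), where 17.2% of all genes were called. The summed level of the neutrophil markers, with the array's 75th percentile as 1, was 5.20 to 16.2 in KpCKO Con against 7.42 to 16.6 in WT Con. Of 10 neutrophil markers with a probe, Camp, Ltf, Mpo, S100a8, S100a9 and Cxcr2 were above background on 12 of 12 arrays, Ngp on 11, Prtn3 on 8, Retnlg on 6 and Elane, neutrophil elastase, on 0. In culture 1 less culture 2, 6 of 9 of them were higher in all 3 conditions in both genotypes. Of all genes, 30.9% showed that pattern in KpCKO and 22% in WT. The median gap of the 9 markers was 1.51 in KpCKO (range -0.39 to 2.74) and 0.91 in WT (range -0.57 to 2.13). The gap of Mmp8 was -1.22 in KpCKO and -0.34 in WT. The part of neutrophils in the Mmp8 values was not tested. In bulk RNA fewer cells of a type cannot be told apart from less RNA per cell.

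Mmp13 was the gene with the opposite genotype difference. In M1 it was at 6.06 and 6.99 in WT and at 2.75 and 3.28 in KpCKO, without overlap. The difference was -3.51 (SE 0.32, 11.4-fold lower in KpCKO, limma adjusted p = 0.0018), with -3.31 in culture 1 and -3.71 in culture 2. In Con and M2 the KpCKO arrays were slightly higher, by 0.47 (adjusted p = 0.63) and 0.67 (adjusted p = 0.41). The M1 call was lost without the KpCKO mouse of culture 1 (-3.38, adjusted p = 0.077) or culture 2 (-3.63, adjusted p = 0.052).

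The test of the difference in the M1 response itself gave -3.97 for Mmp13 (SE 0.46, 95% interval -5.05 to -2.89, limma adjusted p = 0.0504), just above the threshold of 0.05. Its value was -3.66 in culture 1 and -4.28 in culture 2. None of the 10 genes was called in this test (1 at an unadjusted p under 0.05, Mmp13), where 0.0716% of all genes were called. The adjusted p of Mmp13 lay between 0.0063 and 0.36 over the alternative settings, and it was called in 6 of 21, among them without the culture block (0.049) and with the culture 1 array of WT M1 left out (-4.45, 0.0063). For the M2 response 0 of 10 were called by limma (0 at an unadjusted p under 0.05), where 0.00895% of all genes were called.

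Macrophage markers also differed between genotypes. In M1 5 of 9 were lower in KpCKO and 1 was higher, where 8.60% of all genes were lower and 7.41% higher. In Con and in M2 1 of 9, C1qa, was lower, where 0.828% and 0.644% of all genes were lower. Their summed level was 645 to 693 in KpCKO M1 and 896 to 1046 in WT M1. It was also lower in KpCKO in Con (498 to 526 against 676 to 723) and in M2 (554 to 564 against 663 to 730). The part of these marker differences in the Mmp13 difference was not tested.

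Mmp14 was lower in KpCKO M1, at 5.75 and 5.64 against 6.61 and 6.70, without overlap. The difference was -0.96 (SE 0.32, limma adjusted p = 0.086), and a second probe gave -1.19. In Con and M2 it was -0.71 and -0.52, and neither was called. Mmp19 was higher in KpCKO by 1.46, 1.21 and 1.73 in Con, M1 and M2 (limma adjusted p = 0.27, 0.16 and 0.20). Its levels were -0.97 and -1.39 against -2.68 and -2.60 in Con, -1.59 and -2.21 against -3.95 and -2.26 in M1, and -1.10 and -1.62 against -3.15 and -3.03 in M2. The genotypes did not overlap in any condition, though in M1 the culture 2 arrays differed by 0.05 only. With the culture 2 array of WT M1 left out, the Mmp19 difference in M1 was 2.19 (adjusted p = 0.016).

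**Figure D3:**
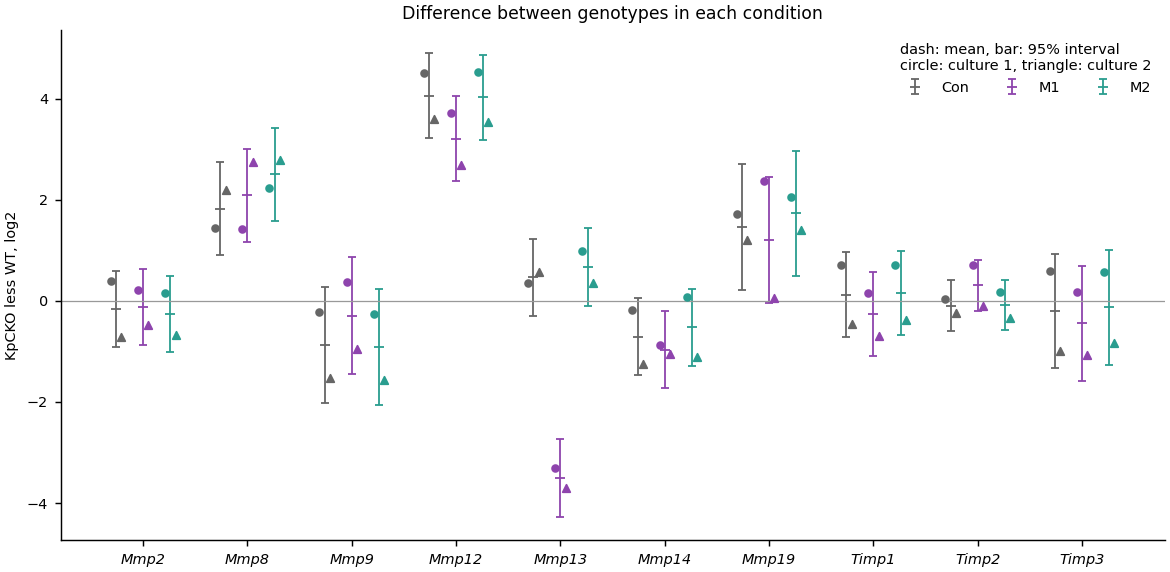
KpCKO less WT difference in log2 level for each gene in Con (grey), M1 (purple) and M2 (green), with the mean, its 95% interval from the model and the value of each culture. Mmp12 stood at 4.05, 3.20 and 4.03, and Mmp13 at -3.51 in M1 alone. For Mmp2, Timp1, Timp2 and Timp3 the cultures lay on opposite sides of 0 in all 3 conditions.

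Over the 3 conditions together 5 of the 10 genes were called, where 17.2% of all genes were called. Mmp12 (3.76), Mmp8 (2.14) and Mmp19 (1.47) were higher, and Mmp13 (-0.79) and Mmp14 (-0.73) lower. The Mmp13 value averages a fall in M1 with small differences of the other sign. This test counts the 3 arrays of a mouse as separate. With the mean of each mouse taken first, 2 mice against 2, 0 of 10 were called by limma, with adjusted p of 0.095 for Mmp12, 0.12 for Mmp8, 0.13 for Mmp13, 0.18 for Mmp19 and 0.25 for Mmp14.

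Most of these genes also differed between the KpCKO mice. For 8 of the 10 the KpCKO mouse of culture 1 was above that of culture 2 in all 3 conditions, a pattern that 30.9% of all genes shared, and Mmp8 was lower there in all 3. For the WT mice 2 of 10 were higher in culture 1 in all 3 conditions, against 22% of all genes. The gap between the KpCKO mice was 1.55 on average for Timp3 (1.61, 1.61 and 1.42 in Con, M1 and M2), 1.23 for Mmp9, 1.05 for Mmp2 and 1.02 for Timp1. In WT it was 0.14, -0.09, 0.17 and -0.01 for the same genes.

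The gaps of Timp1 and Timp3 between the KpCKO mice were thus wider than their differences between genotypes, which were 0.01 and -0.26 over the 3 conditions. Mmp9 was at -2.86 and -2.81 in WT Con and at -3.07 and -4.34 in KpCKO Con, and its genotype differences of -0.87, -0.30 and -0.91 were not called (limma adjusted p = 0.51, 0.70 and 0.47). Mmp2 was at -0.92 and -0.84 in WT Con and at -0.53 and -1.56 in KpCKO Con, so that the WT arrays lay between the KpCKO arrays.

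Genes of stromal cells, which are known to make Mmp2 and the TIMPs, differed between the same mice. Of 11 stromal markers tested, 8 were higher in the KpCKO mouse of culture 1 in all 3 conditions (30.9% of all genes). For the WT mice 1 of 11 was higher in culture 1 in all 3 conditions (22% of all genes). The mean gap was 2.31 for decorin (Dcn), 1.80 for periostin (Postn), 0.95 for the collagen chain Col1a1 and 0.88 for Loxl1 in KpCKO, and -0.23, 0.17, -0.06 and -0.06 in WT. The summed level of the stromal markers was 54.2 and 89.1 in the KpCKO Con arrays and 70.0 and 74.7 in the WT Con arrays. Lum was the only stromal marker not tested, since it was above background on 1 of 12 arrays. The part of stromal cells in the gaps of these MMP and TIMP genes was not tested. Between the genotypes 0 of 11 stromal markers were called by limma in Con and in M2, where 2.21% and 1.93% of all genes were called. In M1 Acta2 alone was called, and it was lower (-0.70, limma adjusted p = 0.025), where 16.0% of all genes were called. Over the 3 conditions 2 of 11 were lower in KpCKO, where 17.2% of all genes were called. The largest fall was that of Dcn (-2.72, limma adjusted p = 0.013).

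**Figure D4:**
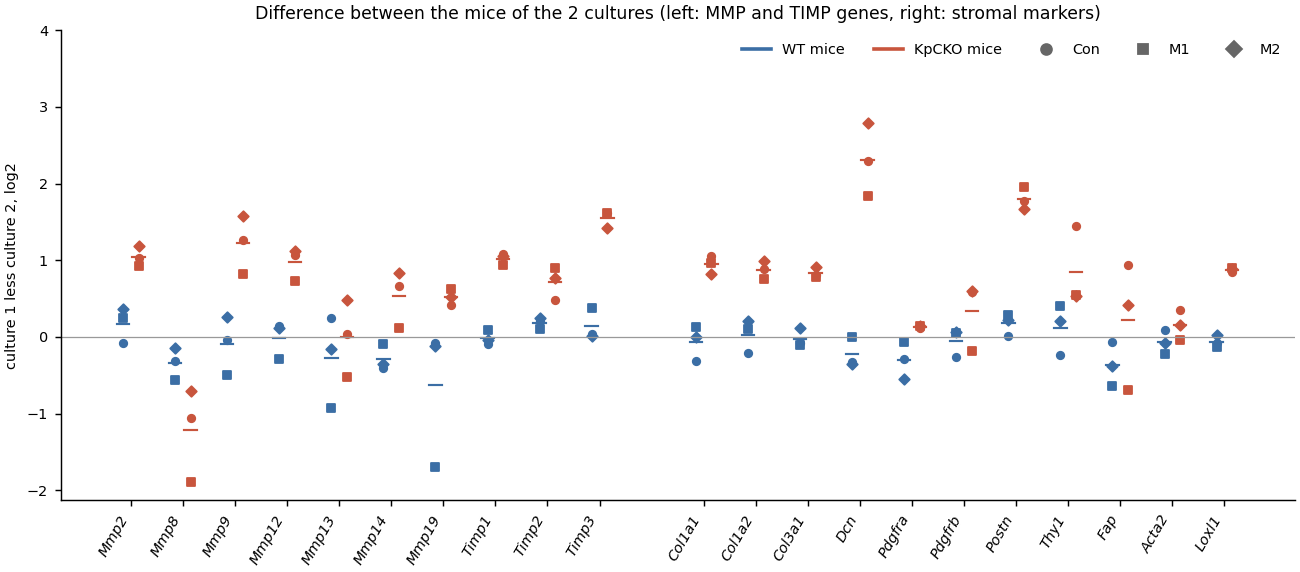
Difference in log2 level between cultures 1 and 2 for the WT mice (blue) and the KpCKO mice (red), for the 10 genes on the left and the 11 stromal markers tested on the right (circle Con, square M1, diamond M2, line their mean). For Mmp2, Mmp9, Timp1 and Timp3 the KpCKO values lie between 0.83 and 1.61, while WT values of these 4 genes lie between -0.49 and 0.38. The mean KpCKO gaps of the stromal markers range from 0.13 to 2.31.

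Mmp13, Mmp12 and Mmp8 are neighbours in a run of 10 MMP genes on chromosome 9, in the RefSeq order Mmp13, Mmp12, Mmp1b, Mmp3, Mmp1a, Mmp10, Mmp8, Mmp27, Mmp20 and Mmp7. Mmp1b and Mmp27 had no probe here, and Mmp1a and Mmp20 were above background on 0 of 12 arrays. Adjacent genes did not move together. With M1 in WT Mmp13 rose by 7.38, its neighbour Mmp12 was at 0.13, the stromelysins Mmp3 and Mmp10 rose by 1.78 and 1.69, Mmp8 fell by 1.73 and Mmp7 (matrilysin) rose by 1.44 (limma adjusted p = 0.0098, 0.0021, 0.0069 and 0.0024 for the last 4). Mmp3 and Mmp7 were well above background on 10 and 7 of 12 arrays. Between the genotypes in M1, Mmp13 was lower in KpCKO by -3.51 and Mmp12 and Mmp8 higher by 3.20 and 2.09, while Mmp3, Mmp10 and Mmp7 were not called (-0.58, -0.66 and -0.47).

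**Figure D5:**
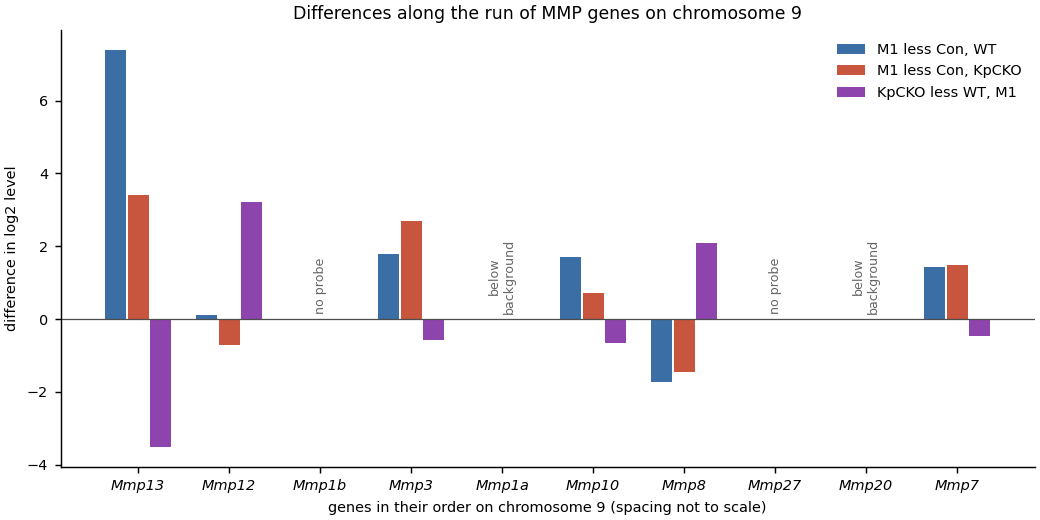
Differences in log2 level for the run of MMP genes on chromosome 9, in gene order and with spacing not to scale: M1 less Con in WT (blue), M1 less Con in KpCKO (red) and KpCKO less WT in M1 (purple). Mmp13 and Mmp12 are next to each other, and their genotype differences in M1 are -3.51 and 3.20.

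Other genes of the same systems were followed by lists. The counts with M1 are to be read against all genes, of which 34.5% rose and 28.7% fell in WT and 24.8% rose and 25.4% fell in KpCKO. Of 11 further MMP and TIMP genes tested, 5 rose and 1 fell with M1 in WT, and 4 rose and 1 fell in KpCKO. The largest rise was that of Mmp25, a protease attached to the leukocyte membrane, by 8.33 in WT and 7.03 in KpCKO. Mmp25 was also lower in KpCKO than in WT in M1 (-1.88, limma adjusted p = 0.025), the only further family member called there. Mmp11, stromelysin 3, fell by 2.30 in WT and fell by 1.95 in KpCKO. None of the 11 was called with M2 in either genotype by limma (16.8% of all genes in WT and 10.2% in KpCKO). Between genotypes none was called in Con or M2 (2.21% and 1.93% of all genes).

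Of 13 activators and partners tested, 6 rose and 1 fell with M1 in WT (34.5% and 28.7% of all genes), and 4 rose and 1 fell in KpCKO (24.8% and 25.4%). Lcn2, lipocalin 2, which binds Mmp9, rose by 3.43 in WT and 3.44 in KpCKO. The endocytic receptor Lrp1, which clears MMP and TIMP complexes, fell by 1.74 in WT and fell by 1.23 in KpCKO. Lrp1 was higher in KpCKO in M1 (1.10, limma adjusted p = 0.0034) and M2 (0.88, adjusted p = 0.019), and Bsg (basigin, an inducer of MMPs) was lower in M1 (-0.33, adjusted p = 0.048). With M2, Thbs1 (thrombospondin 1) fell by 1.99 in WT and Cd44, a surface anchor of Mmp9, rose by 0.72 in KpCKO.

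Of 10 ADAM and ADAMTS proteases tested, 4 rose and 2 fell with M1 in WT (34.5% and 28.7% of all genes), and 4 rose and 1 fell in KpCKO (24.8% and 25.4%). In WT, Adamts9 rose by 2.05 and Adam8 fell by 3.41. Adam19 was lower in KpCKO M1 (-0.81, limma adjusted p = 0.034), and Adamts12 was lower in KpCKO Con (-2.43, adjusted p = 0.026). With M2, Adamts5 rose by 2.02 in WT, and Adam9 rose by 0.55 in KpCKO.

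Of 11 matrix substrates tested, 3 rose with M1 in WT (34.5% of all genes) and 1 in KpCKO (24.8%). Vcan (versican), a matrix proteoglycan, rose by 3.58 and 2.44, and it was lower in KpCKO in M1 (-1.65, limma adjusted p = 0.031). Nid1 (nidogen 1), a basement membrane protein, was higher in KpCKO by 1.44, 1.39 and 1.5 in Con, M1 and M2 (limma adjusted p = 0.013, 0.0063 and 0.011). Of these 11 genes 1 was higher in KpCKO Con (1.38% of all genes) and 2 were higher in KpCKO M2 (1.28%). In M1 3 were higher in KpCKO and 1 lower (7.41% and 8.60%). None was called with M2 stimulation by limma (16.8% of all genes in WT and 10.2% in KpCKO).

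The genes whose levels followed each member most closely over the 12 arrays were taken from 12109 genes with a symbol and above background throughout. Mmp12 was followed by Plac9a (Pearson r = 0.99), B430306N03Rik (0.98) and Calr3 (0.98), and Mmp13 by Lars2 (0.99), Olfr1122 (0.99) and Kremen1 (0.99). Mmp8 was followed by Mgst2 (0.97), Ogt (0.96) and Mgst3 (0.96). Mgst2 and Mgst3 are membrane-bound glutathione transferases. Mmp14 was followed by Fcgr4, Lrp11 and Rap1b (each 0.99), and Mmp19 by Ankrd1 (0.93), Zfp532 (0.91) and Npdc1 (0.91).

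For Timp2 these were Abraxas1, Emp1 and Hyal1 (each 0.99), for Timp3 Fam171a2 (0.98), Pitpnm2 (0.97) and Nfix (0.97), and for Timp1 Amotl2 (0.95), Actc1 (0.95) and Sema7a (0.95). Mmp2 was followed by Slc2a10, Pth1r (each 0.97) and Nbl1 (0.95), and Mmp9 by Dvl1 (0.95), Col11a1 (0.90) and H1f6 (0.86). The 12 arrays fall into genotype and stimulus groups and share mice and slides, so these values describe the profile and carry no test. By Spearman's correlation 14 of the 30 genes were among the first 10. Others ranked far lower, such as Olfr1122 (595.5) and Kremen1 (764) for Mmp13, Dvl1 (347.5) for Mmp9 and Hyal1 (241) for Timp2. Among the 10 genes, Mmp13 and Mmp14 had r = 0.90, Mmp12 and Mmp19 0.89, Timp1 and Timp3 0.90, and Mmp13 and Timp2 -0.90.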

How the data were processed

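Total RNA of BMDMs was labelled with Cy3 and hybridized to 12 one-colour Agilent mouse arrays, 2 for each of 6 groups taken from the sample labels. Per the file headers, the deposited scanner files hold spot intensities from Feature Extraction 10.7.3.1, and the processed intensity is already background-subtracted and detrended by that software. The authors' matrix of log2 values, normalized in GeneSpring, served as an alternative. Control spots were left out, and spots of a probe were averaged. The array files hold 43379 spots and 41174 probes besides controls, of which 26690 were named through RefSeq accessions, to 18217 symbols. A probe without a symbol was kept under its accession. Levels are log2 processed intensities less the 75th percentile of each array. The probe with the highest mean over the 12 arrays stood for a gene. To be tested, a gene needed 1 group in which the scanner called its probe well above background in both cultures. This rule was met by 22367 of 32301 entries. Of these, 22354 also had a value in every group and a p-value for every comparison, and were tested.

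Groups were compared with limma 3.58.1 (R 4.3.3), lmFit and eBayes, over all 12 arrays with the culture as a block (5 residual degrees of freedom), two-sided, with Benjamini-Hochberg adjustment over all genes tested and a threshold of 0.05. The test was run on simulated data with independent noise on each array and no effect of culture or mouse. That simulation cannot show how the test behaves where arrays share a mouse. The study's design text pairs the cultures: each held 1 WT and 1 KpCKO mouse. Arrays of the same culture deviated together, with correlations of 0.268 to 0.724 (median 0.505) over 15 pairs of groups. These include pairs of groups of the same genotype, whose arrays share a mouse, so the correlations do not separate culture from mouse. The methods name Student's t-test, which was run as an alternative. With the culture as a block, the mean shift between the 2 cultures is removed. The limma p-values rest on the spread that remains, pooled over all 12 arrays and moderated across genes. In that spread the arrays of the same mouse count as separate, also where the genotypes are compared within a single condition. The number of arrays limits the precision, and arrays have no read depth. No per-sample column was left unmapped.

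All 10 genes were named in the text, and of the other lists those with the largest rise and fall among the genes called, with the MMP genes of chromosome 9 and the marker genes that moved with a result. The genes most alike each of the 10 were the 3 with the highest Pearson r over 12 arrays. The genes and lists were chosen with earlier results of these data known. The alternatives were quantile normalization, a normexp correction (offset 50, on median intensities), the authors' matrix, other filters and a floor for dim probes, the mean of a gene's probes, no block, the mouse as a random block, trended and robust variances, a fit on the compared groups only, the methods' t-test, and leaving out each array, and for the genes most alike Spearman's correlation and values centred on the culture. Leaving out each KpCKO mouse and taking the mean per mouse were chosen after seeing the data.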

Additional observations from a re-analysis of the deposited data

Results flagged for a closer look

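For 4 genes the KpCKO less WT difference was above 0 in culture 1 and below 0 in culture 2 in all 3 conditions. They were picked by these signs and not by the size of the gap between cultures. Mmp9 did not meet the rule, although its mean gap was 1.23 in KpCKO and -0.09 in WT. The share of all genes with this pattern was not counted. Averaged over Con, M1 and M2, the genotype difference in culture 1 less that in culture 2 was 0.87 for Mmp2, 1.03 for Timp1, 0.53 for Timp2 and 1.41 for Timp3 on the log2 scale. These differences were not tested, since each culture held 1 mouse of each genotype.

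For Mmp13 the KpCKO less WT difference was below 0 in M1 (-3.51, called). It was above 0 in Con (0.47) and M2 (0.67), where it was not called, so only the M1 side passed a test. The M1 response was smaller in KpCKO by -3.97, with a limma adjusted p of 0.0504, which did not pass the threshold. The genotype difference in M2 less that in M1 was 4.17, and this difference was not tested.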

How the results depend on the processing

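No difference called in the reported fit had the other sign under an alternative, and no value with a sign other than the reported one was called. Of 1960 values of single genes under the alternatives, 138 had another sign than the reported one, in 49 pairs of gene and comparison, and 0 of these were called. Among them were Mmp9 (-0.38 to 0.90), Mmp12 (-0.34 to 0.59) and Mmp19 (-1.45 to 0.52) with M1 in WT and Timp1 between genotypes in Con (-0.42 to 0.67). The counts of the 10 genes called changed as follows. With M1 in WT (5), the methods' t-test after adjustment gave 3, and leaving out an array 3 to 5. With M1 in KpCKO (4), a fit on the compared groups gave 7, the methods' t-test 2 before and 0 after adjustment, and leaving out an array 3 to 4. With M2 in WT (0), quantile normalization, the filter on all 12 arrays, the floor and trended variances each gave 1, a fit on the compared groups 3, and the t-test before adjustment 4. Between genotypes in Con (1), the filter on all 12 arrays, trended variances and the t-test before adjustment each gave 2. A fit on the compared groups, the adjusted t-test and leaving out either KpCKO mouse gave 0. In M1 (3), the compared groups and the adjusted t-test gave 0, and leaving out either KpCKO mouse gave 1. In M2 (2), no filter gave 1, leaving out an array 0 to 1, and the compared groups, the adjusted t-test and leaving out either KpCKO mouse gave 0. Over the 3 conditions (5), no filter gave 3, leaving out an array 2 to 4, leaving out the KpCKO mouse of culture 1 or 2 gave 3 or 2, and means per mouse 0. For the difference in the M1 response (0), the authors' matrix, the filter on all 12 arrays, the floor and trended variances gave 1, and leaving out an array 0 to 1.

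Without the culture block, that is without pairing, 1 gene was called between genotypes in M2 and 1 in the M1 response difference. The other counts stayed within 1.5 times. Over all genes, calls between genotypes in M1 were 3579, against 1193 without the block and 915 after normexp. Quantile normalization moved the median M1 difference of all genes in WT from 0.13 to -0.08 and normexp moved it to 0.40, and the share of higher calls there from 54.6% to 45.2% under quantile normalization. Between genotypes in M1 that share was 46.3%, and 60% under quantile normalization. The cause of these changes was not tested. Of the 30 genes named as most alike, 14 were among the first 10 by Spearman's correlation and 24 with values centred on the culture.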
